A study of Mus musculus with 4 samples.

Results

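The 38 listed Hox genes, which encode homeodomain transcription factors, were examined in a single-nucleus ATAC-seq study of mouse mammary epithelium. They were taken by gene name from a set list, drawn up with earlier results of these data known, out of 49943 genes in the RefSeq table used here: 10 in the HoxA cluster, 10 in HoxB, 9 in HoxC and 9 in HoxD. ATAC-seq uses the transposase Tn5, which inserts sequencing adapters where DNA is not packed away, so the number of reads over a gene or region measures how accessible its DNA was and not how much RNA it made. Wild-type CD1 mice, an outbred strain, gave mammary cells at embryonic day 18 and in adults at 8 weeks, and the cells were sorted as EpCAM-positive and negative for the lineage markers. Each stage had 2 libraries described as biological replicates, and whether a library held 1 animal or several is not given in the sources used here, so each p-value measures only the spread between these libraries. Tagmentation, the step with Tn5, used 16 wells for each fetal and 32 for each adult library. The number of wells thus coincided with stage and cannot be told apart from it. The authors kept 7846 nuclei in all and divided them into 14 numbered classes. Per library the kept nuclei numbered 882 and 1695 in fetal and 2465 and 2804 in adult samples, carrying 6028168 and 15801908 fetal and 13588107 and 19304830 adult reads, so the first fetal library is the least precise.

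Hox genes stand side by side in 4 clusters, and their order along the chromosome follows the order in which they are used along the head-to-tail axis of the embryo. Genes at the anterior end carry low paralogue numbers and genes at the posterior end carry high ones. Their products bind DNA alone or together with TALE homeodomain cofactors of the Pbx and Meis families, and Polycomb and trithorax proteins hold the clusters silent or active. Several Hox genes have roles in the mammary gland: Hoxc8 acts in the positioning of the mammary placodes, and Hoxa9, Hoxb9 and Hoxd9 act together in the growth of the gland in pregnancy.

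All 38 listed Hox genes had higher estimated accessibility over the gene span in fetal than in adult libraries, and 14 of them rose by the test while none fell. The background was a log2 fold change above 0 in 51.4% of the 29736 gene spans tested, a call higher in fetal in 10.3% and a call lower in 10.1%. The median log2 fold change of the members was 0.73, beside 0.02 over all gene spans tested. The 14 that rose were Hoxa3 and Hoxa5, Hoxb6 and Hoxb8, Hoxc4, Hoxc5, Hoxc6, Hoxc8, Hoxc12 and Hoxc13, and Hoxd1, Hoxd3, Hoxd4 and Hoxd12. Both fetal libraries lay above both adult libraries for 33 members, which was the case for 30.9% of all gene spans tested, and the stages overlapped for Hoxa4, Hoxa10, Hoxa11, Hoxa13 and Hoxb2. All 38 passed the filter (10 or more reads on average over the 4 libraries), and the lowest count of a member in 1 library was 10 reads.

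The test was the quasi-likelihood test of edgeR on the reads over each annotated gene span, with p-values adjusted over all gene spans tested, and levels are given as reads per kilobase of span for every 1000000 reads of the kept nuclei. The number of members called fell to 8 without fetal replicate 1, 7 without fetal replicate 2 and 9 without adult replicate 1, and to 8 with DESeq2; all calls stayed in the direction of higher in fetal. In all, 10 members overlapped another member and 8 had no base outside other genes of the table, so reads over Hoxa4, Hoxa5, Hoxa6, Hoxb4, Hoxb5, Hoxb6, Hoxd4 and Hoxd8 cannot be assigned to 1 gene.

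**Figure D1:**
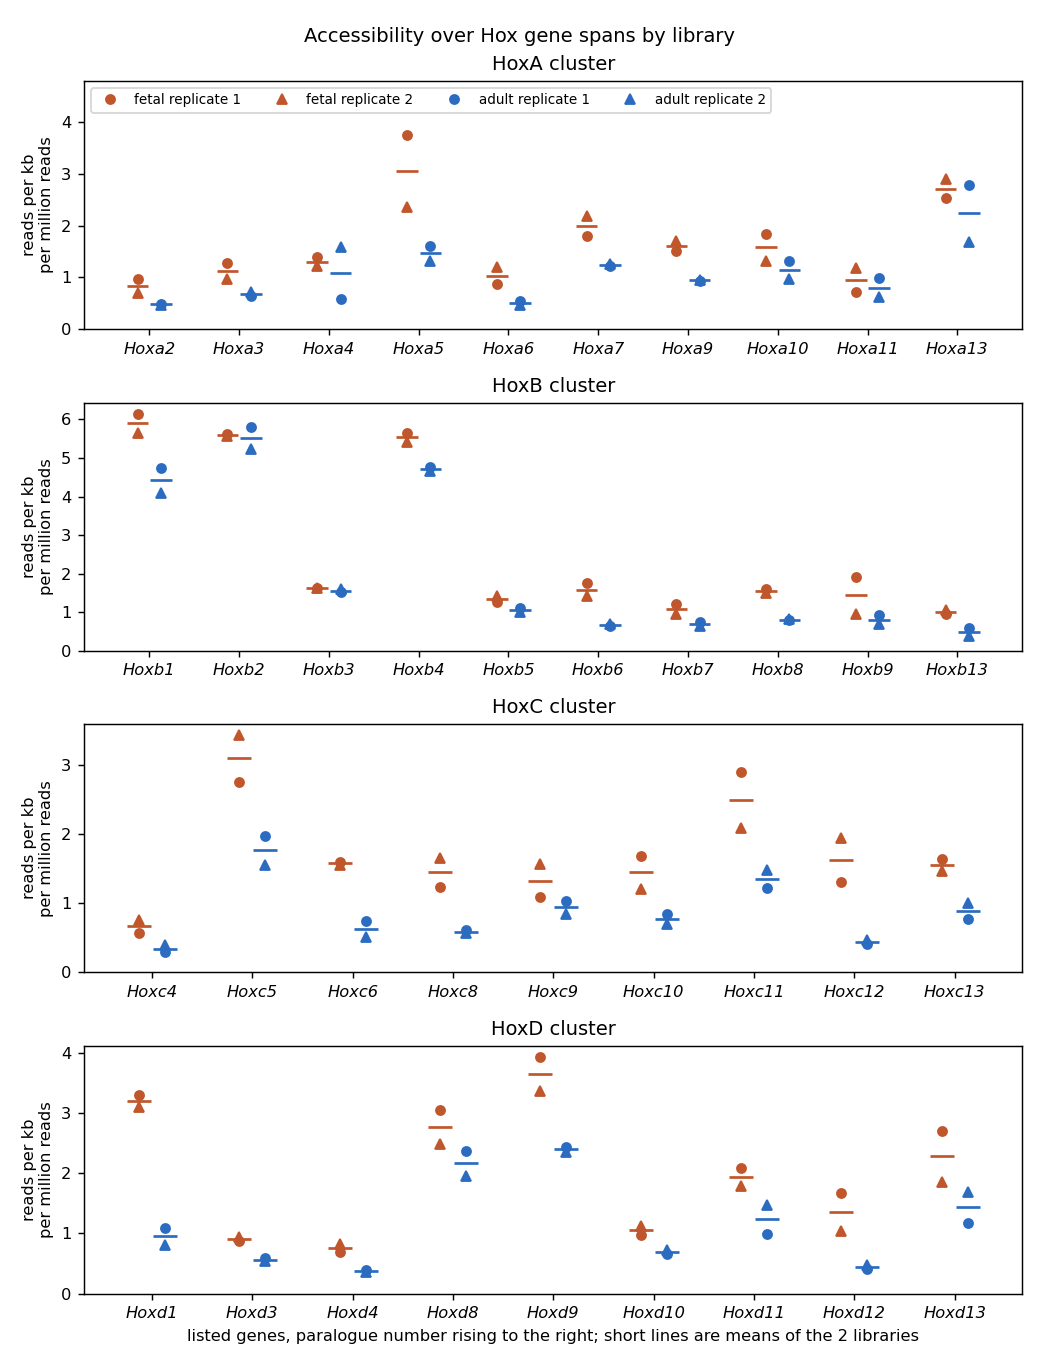
Accessibility of each listed Hox gene in each library, in reads per kilobase of gene span for every 1000000 reads of the kept nuclei, with 1 panel per cluster and the paralogue number rising to the right. Circles are replicate 1 and triangles replicate 2 of each stage, short lines are the means of 2 libraries, and Hoxb1, Hoxb2 and Hoxb4 stand above 4 in every library.

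The 6 largest rises by the test were in Hoxc12, Hoxd1, Hoxd12, Hoxc6, Hoxc8 and Hoxb6. Hoxc12, a posterior gene known from the hair follicle, spans chr15:102936826-102938609 and had levels of 1.30 and 1.95 in fetal, 0.413 and 0.465 in adult libraries. It rested on 14 and 55 fetal and 10 and 16 adult reads, and its stages did not overlap (log2 fold change 1.90 ± 0.55 (SE), edgeR adjusted p = 0.0240). Hoxd1, the most anterior gene of HoxD, spans chr2:74762980-74765142 and had levels of 3.30 and 3.10 in fetal, 1.09 and 0.814 in adult libraries. The lowest fetal library was thus well above the highest adult library, a difference of 3.35-fold in the fit (log2 fold change 1.74 ± 0.36 (SE), edgeR adjusted p = 0.00265). Hoxd12, a posterior gene used in the digits, spans chr2:74675013-74677705 and had levels of 1.66 and 1.03 in fetal, 0.410 and 0.481 in adult libraries. Its stages did not overlap (log2 fold change 1.53 ± 0.51 (SE), edgeR adjusted p = 0.0459), and the call was lost when fetal replicate 1, adult replicate 1, adult replicate 2 or class 6 (a class of nuclei described further on) was left out. In all it was lost in 7 of 14 alternatives, the others being DESeq2, the span with 2000 bases added on either side (log2 fold change 0.57) and the window at the gene start (0.95).

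Hoxc6, a central gene long studied in mammary epithelium, spans chr15:102998226-103011882 and had levels of 1.60 and 1.56 in fetal, 0.738 and 0.508 in adult libraries. It rose 2.54-fold with no overlap (log2 fold change 1.34 ± 0.21 (SE), edgeR adjusted p = 3.2e-04), and the call held in all 14 alternatives run for it. Hoxc8 spans chr15:102990539-102994275 and had levels of 1.24 and 1.66 in fetal, 0.610 and 0.568 in adult libraries. The adult libraries lay close together below both fetal libraries (log2 fold change 1.31 ± 0.37 (SE), edgeR adjusted p = 0.0211), and without fetal replicate 2 the call was lost. Hoxb6, a central gene of HoxB, spans chr11:96292814-96301569 and had levels of 1.76 and 1.41 in fetal, 0.630 and 0.704 in adult libraries. Its rise passed the test (log2 fold change 1.21 ± 0.24 (SE), edgeR adjusted p = 0.00195), with the limit that the span lies wholly within other genes of the table. Hoxc12 in turn lost its call without fetal replicate 2 or adult replicate 1.

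The member with the highest level per kilobase in each cluster was taken next, whatever its change. In HoxB it was Hoxb2, a gene of hindbrain patterning at chr11:96351632-96354020, with levels of 5.62 and 5.56 in fetal, 5.79 and 5.23 in adult libraries. Its stages overlapped (log2 fold change 0.01 ± 0.19 (SE), edgeR adjusted p = 0.972). In HoxD it was Hoxd9 at chr2:74697763-74700208, with levels of 3.93 and 3.36 in fetal, 2.44 and 2.35 in adult libraries. The fetal libraries of Hoxd9 were both higher, but the difference did not pass (log2 fold change 0.58 ± 0.26 (SE), edgeR adjusted p = 0.129). In HoxC it was Hoxc5 at chr15:103014008-103017429, with levels of 2.76 and 3.44 in fetal, 1.98 and 1.56 in adult libraries. It was the one of these 4 that rose (log2 fold change 0.83 ± 0.25 (SE), edgeR adjusted p = 0.0294). In HoxA it was Hoxa13, a gene of the digits and genital tract at chr6:52258853-52260880, with levels of 2.54 and 2.90 in fetal, 2.79 and 1.69 in adult libraries. The adult libraries of Hoxa13 differed from each other by more than the stages did (log2 fold change 0.30 ± 0.33 (SE), edgeR adjusted p = 0.579).

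The other 7 members that rose had smaller changes. Hoxa5, known from lung and axial development, had levels of 3.75 and 2.37 in fetal, 1.61 and 1.32 in adult libraries. It rose with no overlap (log2 fold change 1.02 ± 0.31 (SE), edgeR adjusted p = 0.0293). Hoxa3, needed for the thymus and parathyroid, had 1.28 and 0.975 in fetal, 0.634 and 0.712 in adult libraries. Its span contains those of Hoxa4, Hoxa5 and Hoxa6 (log2 fold change 0.71 ± 0.15 (SE), edgeR adjusted p = 0.00369). Hoxb8, a central gene of HoxB also known from myeloid cells, had 1.60 and 1.48 in fetal, 0.783 and 0.813 in adult libraries. The libraries of each stage lay close together (log2 fold change 0.93 ± 0.27 (SE), edgeR adjusted p = 0.0222). Hoxc4 had 0.575 and 0.756 in fetal, 0.286 and 0.395 in adult libraries, the lowest mean over the 4 libraries of any member. It rose (log2 fold change 0.96 ± 0.25 (SE), edgeR adjusted p = 0.0135). Hoxc13, which acts in hair and nail, had 1.64 and 1.47 in fetal, 0.766 and 0.998 in adult libraries. Its stages did not overlap, and its log2 fold change was 0.78 ± 0.24 (SE). Hoxd3 had 0.878 and 0.935 in fetal, 0.588 and 0.543 in adult libraries, and Hoxd4, within its span, had 0.693 and 0.828 in fetal, 0.389 and 0.353 in adult libraries. Both rose with no overlap, Hoxd3 by a log2 fold change of 0.68 ± 0.15 (SE) and Hoxd4 by 1.04 ± 0.36 (SE), although the call of Hoxd4 was kept in only 6 of 13 alternatives. Leaving out fetal replicate 1 ended the calls of Hoxa3, Hoxa5, Hoxb8, Hoxc13 and Hoxd4. Leaving out fetal replicate 2 ended those of Hoxb8, Hoxc4, Hoxc5, Hoxc13, Hoxd3 and Hoxd4. Without adult replicate 1 Hoxb8, Hoxc13 and Hoxd4 were lost, and without adult replicate 2 Hoxa5, Hoxc5 and Hoxd4. DESeq2 did not call Hoxa5, Hoxb8, Hoxc5, Hoxc13 or Hoxd4, and over the start window Hoxa3 was at 0.03.

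The paralogues known to act together in the mammary gland were not called. Hoxa9 had levels of 1.51 and 1.70 in fetal, 0.930 and 0.957 in adult libraries. Both fetal values were above both adult values (log2 fold change 0.77 ± 0.30 (SE), edgeR adjusted p = 0.0836). Hoxb9 had 1.92 and 0.961 in fetal, 0.922 and 0.689 in adult libraries. One fetal library stood well above the other 3, and the stages came close (log2 fold change 0.77 ± 0.35 (SE), edgeR adjusted p = 0.138). Hoxd10, whose loss is known to impair lactation, had 0.980 and 1.12 in fetal, 0.652 and 0.732 in adult libraries. Its stages did not overlap, but the difference did not pass (log2 fold change 0.60 ± 0.23 (SE), edgeR adjusted p = 0.0800). Among the other members that were not called, the log2 fold changes of Hoxb13, Hoxa6, Hoxc10, Hoxc11 and Hoxa2 were 1.06, 1.05, 0.86, 0.84 and 0.75, as large as those of called members but with SEs from 0.31 to 0.57. Hoxb13 had 13 and 38 fetal and 18 and 17 adult reads, and Hoxa2 had 14 and 27 fetal and 16 and 22 adult reads. These members were named after their values were seen.

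By cluster, 6 of 9 HoxC members, 4 of 9 HoxD members, 2 of 10 HoxA members and 2 of 10 HoxB members were called higher. The share over all gene spans tested was 10.3%, and these groups are small. The median log2 fold change was 0.86 in HoxC, 0.70 in HoxA, 0.61 in HoxD and 0.50 in HoxB. Within HoxB the 4 anterior genes Hoxb1 to Hoxb4 ranged from 0.01 to 0.40 and none was called, whereas the 6 genes from Hoxb5 to Hoxb13 ranged from 0.35 to 1.21. Of these 4, Hoxb2, Hoxb1 and Hoxb4 held the highest levels of the family per kilobase: the means over the 4 libraries were 5.55 for Hoxb2, 5.16 for Hoxb1 and 5.12 for Hoxb4, the next was Hoxd9 at 3.02, and Hoxb3 was at 1.60. The anterior genes of HoxD, by contrast, were all called, with Hoxd1 at 1.74, Hoxd4 at 1.04 and Hoxd3 at 0.68. Hoxd4 lies within the Hoxd3 span, so the calls of Hoxd3 and Hoxd4 share reads. The call of Hoxd4 was kept in only 6 of 13 alternatives, and Hoxd3 was at -0.64 over its start window. Over all clusters, 5 of 11 anterior members (paralogues 1 to 4), 6 of 11 central members (5 to 8) and 3 of 16 posterior members (9 to 13) were called. The differences between these groups, and those between the clusters or their parts, were not tested.

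The proximal promoter sequences of 22 members were in the RefSeq promoter table, which gives the 250 bases before and 50 bases after a gene start in GRCm38.p6. Those of 5 members are printed here 5′ to 3′ on the gene's strand: Hoxd1, Hoxd12 and Hoxa5, whose spans rose, and Hoxb4 and Hoxb1, which had high levels and were not called. Capitals mark matches on either strand to TAAT (the core homeodomain motif, also read as ATTA), TGATTNAT (a joint Hox and Pbx motif) or TGACAG (a Meis motif), and overlapping matches run together. Of the 32851 promoters in the table, 58.0% held TAAT, 3.22% TGATTNAT and 19.2% TGACAG. Of the 24 Hox entries, 19 held TAAT, 2 held TGATTNAT (Hoxa2 and the second of 2 entries of Hoxd11) and 2 held TGACAG (Hoxa2 and Hoxa3). The Hox entries had a median of 14.5 CpG dinucleotides in 300 bases, beside 7 in the whole table. A match is a description of the letters and not evidence of binding.
Hoxd1: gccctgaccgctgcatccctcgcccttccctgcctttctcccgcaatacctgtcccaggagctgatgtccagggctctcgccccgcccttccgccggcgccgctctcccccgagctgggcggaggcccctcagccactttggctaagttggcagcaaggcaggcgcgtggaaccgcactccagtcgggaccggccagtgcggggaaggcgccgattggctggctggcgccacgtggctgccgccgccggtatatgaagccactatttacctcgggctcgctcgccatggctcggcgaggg
Hoxd12: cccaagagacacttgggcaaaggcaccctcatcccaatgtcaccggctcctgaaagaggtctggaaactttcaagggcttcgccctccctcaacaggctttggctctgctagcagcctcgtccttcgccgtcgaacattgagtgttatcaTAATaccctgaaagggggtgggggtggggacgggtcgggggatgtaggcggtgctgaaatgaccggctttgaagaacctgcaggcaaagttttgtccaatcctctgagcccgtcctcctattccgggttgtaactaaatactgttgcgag
Hoxa5: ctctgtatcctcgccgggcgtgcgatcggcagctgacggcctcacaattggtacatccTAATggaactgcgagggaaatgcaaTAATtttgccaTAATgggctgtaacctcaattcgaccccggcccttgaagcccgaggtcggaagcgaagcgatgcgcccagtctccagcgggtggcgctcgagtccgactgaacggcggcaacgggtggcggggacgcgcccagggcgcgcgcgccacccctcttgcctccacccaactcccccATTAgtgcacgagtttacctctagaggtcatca
Hoxb4: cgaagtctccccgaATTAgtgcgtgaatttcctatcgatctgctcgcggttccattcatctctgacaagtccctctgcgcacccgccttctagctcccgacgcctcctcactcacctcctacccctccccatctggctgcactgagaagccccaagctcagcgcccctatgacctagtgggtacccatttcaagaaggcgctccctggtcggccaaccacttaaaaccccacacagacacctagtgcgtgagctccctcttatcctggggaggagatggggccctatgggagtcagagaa
Hoxb1: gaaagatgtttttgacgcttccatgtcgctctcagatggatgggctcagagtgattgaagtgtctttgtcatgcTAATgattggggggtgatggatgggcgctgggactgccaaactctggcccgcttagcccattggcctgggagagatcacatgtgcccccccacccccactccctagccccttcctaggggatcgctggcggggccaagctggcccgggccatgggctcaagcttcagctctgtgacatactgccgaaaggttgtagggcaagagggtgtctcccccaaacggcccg

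The Hoxd1 sequence (chr2:74762730-74763029, plus strand) held 29 CpG and no match to the 3 motifs. Reads overlapping exactly these bases, in RPM (reads for every 1000000 reads of the library's kept nuclei), came to 5.81 and 3.86 RPM in fetal, 1.25 and 1.71 in adult libraries, with no overlap of the stages. The Hoxa5 sequence (chr6:52204538-52204837, minus strand) held 29 CpG and 4 matches to TAAT, with 2.32 and 0.886 RPM in fetal, 0.810 and 1.19 in adult libraries; the stages overlapped. The Hoxd12 sequence (chr2:74674763-74675062, plus strand) held 13 CpG and 1 match, with 0.498 and 1.08 RPM in fetal, 0.515 and 0.466 in adult libraries. Those values rest on 3 and 17 fetal and 7 and 9 adult reads. The Hoxb4 sequence (chr11:96318017-96318316, plus strand) held 14 CpG and 1 match, with 1.66 and 1.33 RPM in fetal, 0.589 and 0.932 in adult libraries. The Hoxb1 sequence (chr11:96365508-96365807, plus strand) held 10 CpG and 1 match, and only 0 to 3 reads of a library overlapped it, although the Hoxb1 span as a whole was among the most accessible. Hoxa3, Hoxc4, Hoxd3 and Hoxd4 also rose over their spans and had promoter sequences, which are not printed. The stages overlapped over those of Hoxa3, Hoxd3 and Hoxd4. That of Hoxc4 had 0.829 and 1.20 RPM in fetal, 0.0736 and 0.414 in adult libraries, from 5 and 19 fetal and 1 and 8 adult reads. Over windows around the gene start, 20 members could be tested and 2 were called higher in fetal, near the background of 10.9% of the 15359 windows tested. The log2 fold change of Hoxd3 over its window was -0.64.

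In the authors' lists of open regions, each 1000 bases wide, the promoter regions inside the clusters also rose in part. The 4 cluster intervals, from the first to the last listed gene with 5000 bases added on either side, held 51 promoter regions and 83 distal regions, of 19204 and 145453 in the series. Of 49 promoter regions tested, 9 were called higher in fetal and none lower, where 10.5% of all promoter regions were called higher and 49.9% had a log2 fold change above 0; 44 of the 49 did. Of 70 distal regions tested, 13 were called higher, a share of 18.6% beside a background of 16.6%. That share is near the background, although 65 of the 70 lay above 0 beside 49.5% of all distal regions. Of the 9 promoter calls, 5 were in HoxC. The filter was on the mean over the 4 libraries, so these counts can include regions that passed only through high fetal reads. A called distal region in Hoxc6, described further on, was of this kind. The counts were not split by this. The counts fell to 4 promoter regions without fetal replicate 2 or without adult replicate 2 and to 5 without adult replicate 1, and to 3 distal regions without adult replicate 1 or with DESeq2.

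The called region with the largest rise among those with a mean of at least 50 reads over the 4 libraries was a promoter region in each of 3 clusters, and HoxB had none. In HoxC it lay within Hoxc6 (chr15:102998777-102999776), with 8.63 and 7.47 RPM in fetal, 2.80 and 2.07 in adult libraries. Both fetal values lay far above both adult values (log2 fold change 1.72 ± 0.30 (SE), edgeR adjusted p = 1.4e-05). In HoxD it covered the start of Hoxd1 (chr2:74762119-74763118) and holds the whole sequence printed for that gene, with 8.79 and 5.76 RPM in fetal, 2.80 and 3.11 in adult libraries. The stages did not overlap (log2 fold change 1.23 ± 0.31 (SE), edgeR adjusted p = 0.00193). In HoxA it lay within Hoxa5 and the longer Hoxa3 span (chr6:52203359-52204358), with 6.97 and 5.06 RPM in fetal, 3.61 and 1.97 in adult libraries. It passed the test (log2 fold change 1.10 ± 0.33 (SE), edgeR adjusted p = 0.0111) but not without fetal replicate 1 or without adult replicate 2. The HoxB regions with the most reads were not called: the promoter region inside Hoxb1 (chr11:96366183-96367182) had 14.6 and 13.7 RPM in fetal, 11.8 and 9.84 in adult libraries (log2 fold change 0.38 ± 0.19 (SE), edgeR adjusted p = 0.144), and the one in Hoxb4 (chr11:96318048-96319047) had 11.8 and 7.02 RPM in fetal, 8.46 and 7.93 in adult libraries (log2 fold change 0.12 ± 0.23 (SE), edgeR adjusted p = 0.769). Among promoter regions, the one between Hoxa7 and Hoxa9 (chr6:52221215-52222214) had 6.14 and 5.89 RPM in fetal, 8.32 and 7.51 in adult libraries, so both adult values were higher, without a call (log2 fold change -0.40 ± 0.25 (SE), edgeR adjusted p = 0.269). It and the 2 HoxB regions were picked after their values were seen.

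**Figure D2:**
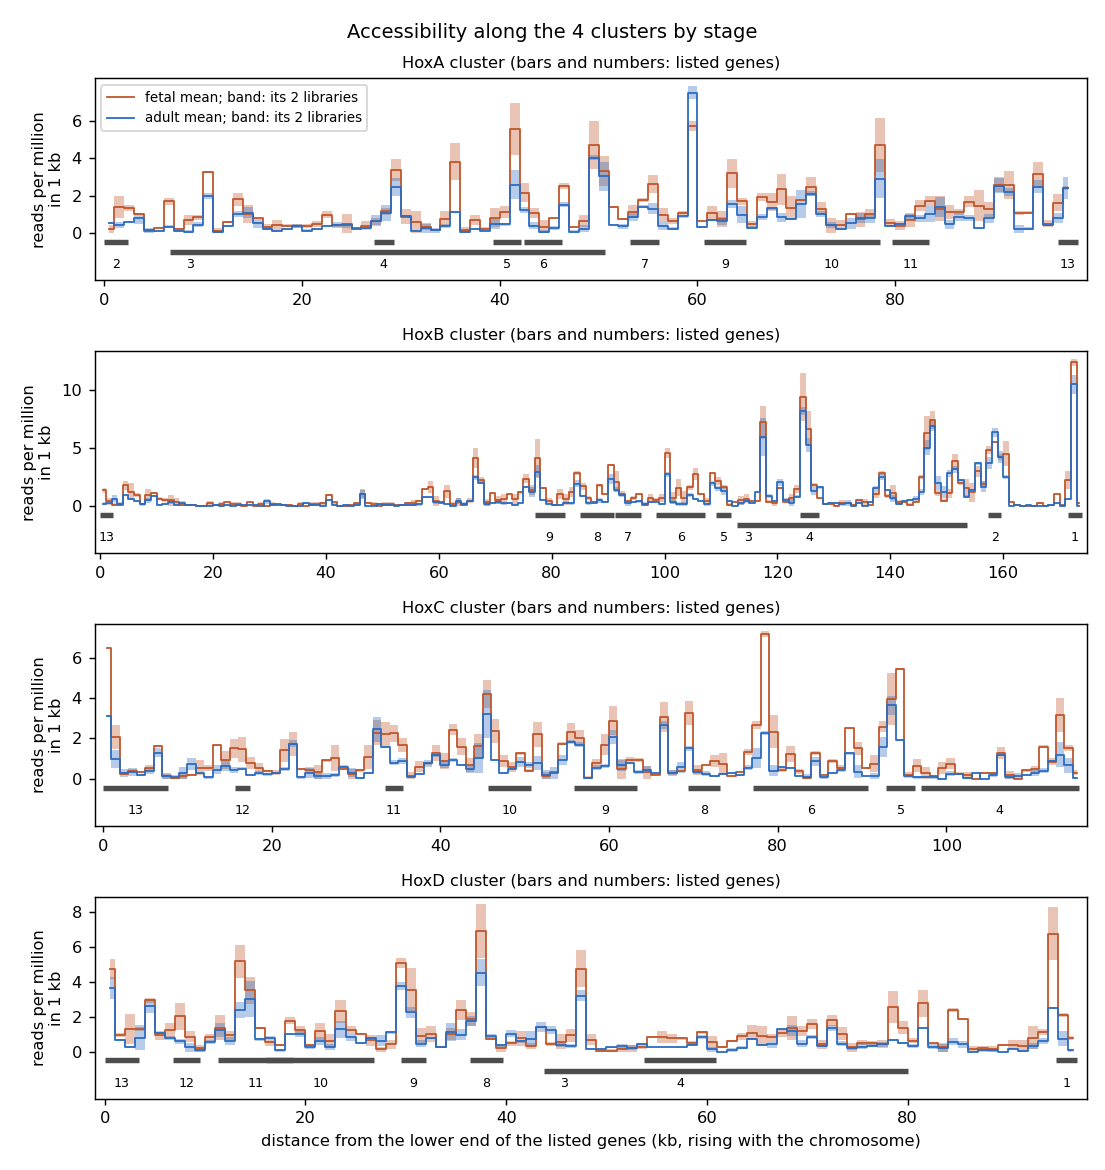
RPM in bins of 1 kb along each cluster, from the lower to the upper end of the listed genes, with distance on the horizontal axis. Lines are stage means and bands span the 2 libraries of a stage, and grey bars with paralogue numbers are the listed genes. The tallest HoxB bin, at Hoxb1, had 12.1 and 12.7 in fetal, 11.3 and 9.69 in adult libraries. The HoxC bin that was tallest in fetal libraries, at Hoxc6, had 7.30 and 7.02 in fetal, 2.36 and 2.18 in adult libraries. It was not the tallest in adult libraries.

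Over whole cluster intervals the level was 1.49 ± 0.198 in fetal against 0.958 ± 0.0602 in adult libraries (SD, n = 2 each) for HoxA, a ratio of 1.56. It was 1.11 ± 0.0604 in fetal against 0.817 ± 0.0176 in adult libraries (SD, n = 2 each) for HoxB, a ratio of 1.36. It was 1.13 ± 0.0602 in fetal against 0.627 ± 0.0208 in adult libraries (SD, n = 2 each) for HoxC, a ratio of 1.81, and 1.23 ± 0.0441 in fetal against 0.767 ± 0.0271 in adult libraries (SD, n = 2 each) for HoxD, a ratio of 1.60. The difference was not limited on every side to these intervals, which were drawn from the listed genes alone. In the 250000 bases next to an interval the ratio was 1.61 on the anterior side of HoxA, 1.58 on the anterior side of HoxC and 1.40 on the posterior side of HoxB. It was 1.08, 1.38 and 1.07 on their other sides, and 1.12 and 1.03 on the posterior and anterior sides of HoxD. These ratios are descriptions and were not tested.

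The stages differ in their makeup of cells: classes 2 and 11 together hold 3 and 7 fetal but 1519 and 557 adult nuclei. Library sums cannot tell fewer nuclei of a type from less open chromatin per nucleus. Of the marker lists used to name the classes, the summed reads of 8 mature luminal markers ran from 318 to 349 RPM in fetal and from 637 to 646 in adult libraries, and those of 9 stromal markers from 201 to 209 and from 168 to 169. Of the other 7 lists only the immune markers overlapped between the stages. Basal markers were at 430.3 and 448 in fetal, 362 and 430.2 in adult libraries, with fetal replicate 1 and adult replicate 2 nearly equal, and endothelial markers at 109 and 124 in fetal, 105 and 98.9 in adult libraries. Luminal progenitor markers were at 326 and 319 in fetal, 286 and 235 in adult libraries. Shared luminal markers were at 458 and 455 in fetal, 607 and 494 in adult libraries. Neural and glial markers were at 67.2 and 65.4 in fetal, 57.8 and 54.8 in adult libraries, and muscle and adipocyte markers at 50.6 and 33.4 in fetal, 30.4 and 29.3 in adult libraries. Without class 6, the class with raised stromal markers, 13 members were called higher. The part of the makeup of cells in the stage difference was not tested. Classes 1, 4 and 8 had 10, 7 and 9 of 10 basal markers raised and are called basal-like, and classes 3, 5, 7 and 9 had 7, 5, 7 and 6 of 8 luminal progenitor markers raised and are called luminal progenitor-like. Class 10 also had 5 of the 8 raised, together with 4 of 8 mature luminal markers, and was put in neither group. Likewise, class 14 had 6 of 10 basal and 6 of 8 mature luminal markers raised and was put in neither. Fetal class 12 (339 nuclei) had 3 of 10 basal and 3 of 8 luminal progenitor markers raised and was also put in neither. Its summed basal markers came to 569 RPM, beside 581 in class 4. These names rest on the markers alone, and class and stage largely coincide: classes 5 and 9 hold most fetal progenitor-like nuclei and class 4 most fetal basal-like nuclei.

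Within luminal progenitor-like nuclei, 8 of 36 members tested rose and none fell, beside 8.19% of gene spans called higher and 51% above 0; 32 of the 36 lay above 0. The 8 were Hoxa3, Hoxb6, Hoxc4, Hoxc5, Hoxc6, Hoxc12, Hoxc13 and Hoxd1, so 5 of 9 HoxC members were among them. Hoxc12 and Hoxd1, as well as Hoxc11, which was not called, averaged under 10 adult reads and entered the test only through the fetal libraries in which they were high. Among the 33 members that averaged 10 or more reads at both stages, 6 were called and 29 lay above 0. The direction of Hoxa3 turned over the start window, at -0.24. Hoxc6 had 1.64 and 1.35 in fetal, 0.402 and 0.405 in adult libraries. It rose 3.55-fold there, with no overlap (log2 fold change 1.83 ± 0.29 (SE), edgeR adjusted p = 1.1e-04). Hoxd1 had 3.03 and 3.41 in fetal, 0.586 and 0.706 in adult libraries. They came from 26 and 70 fetal but only 6 and 8 adult reads, and the values are given as a description for the reason above. Hoxc12 had 14 and 28 fetal but 0 and 2 adult reads, too few in adults for a fold to be stated, and is a description likewise. Hoxa2 and Hoxb13 had too few reads to be tested. Fewer of the 36 were called without fetal replicate 1, without fetal replicate 2 or with DESeq2, which called 4. Hoxb6, Hoxc5 and Hoxc13 were among the members that DESeq2 did not call.

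Within basal-like nuclei, 2 of 24 members tested were called higher, Hoxc6 and Hoxd3, and none lower, beside 2.45% of gene spans called higher and 50% above 0; 18 of the 24 lay above 0. Hoxa5, Hoxa7 and Hoxd13, none of them called, averaged under 10 fetal reads there, and of the 21 others 15 lay above 0. Hoxc6 had 1.42 and 1.68 in fetal, 0.722 and 0.328 in adult libraries. Its stages did not overlap (log2 fold change 1.73 ± 0.45 (SE), edgeR adjusted p = 0.0219). Hoxd3, an anterior gene of axial patterning, had 0.929 and 1.02 in fetal, 0.492 and 0.480 in adult libraries. It passed the threshold narrowly (log2 fold change 1.04 ± 0.31 (SE), edgeR adjusted p = 0.0485). Both calls were lost with DESeq2 and when fetal replicate 1, fetal replicate 2 or adult replicate 2 was left out, and that of Hoxd3 also without adult replicate 1. The difference between the stage changes of the 2 groups of classes was tested directly: 0 of 34 members passed in edgeR or in DESeq2, with 2 at an unadjusted p under 0.05 in edgeR, beside 4.93% of gene spans called. The smallest adjusted p of a member was 0.0942, in Hoxb3, at -0.50 in basal-like and 0.19 in progenitor-like nuclei.

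**Figure D3:**
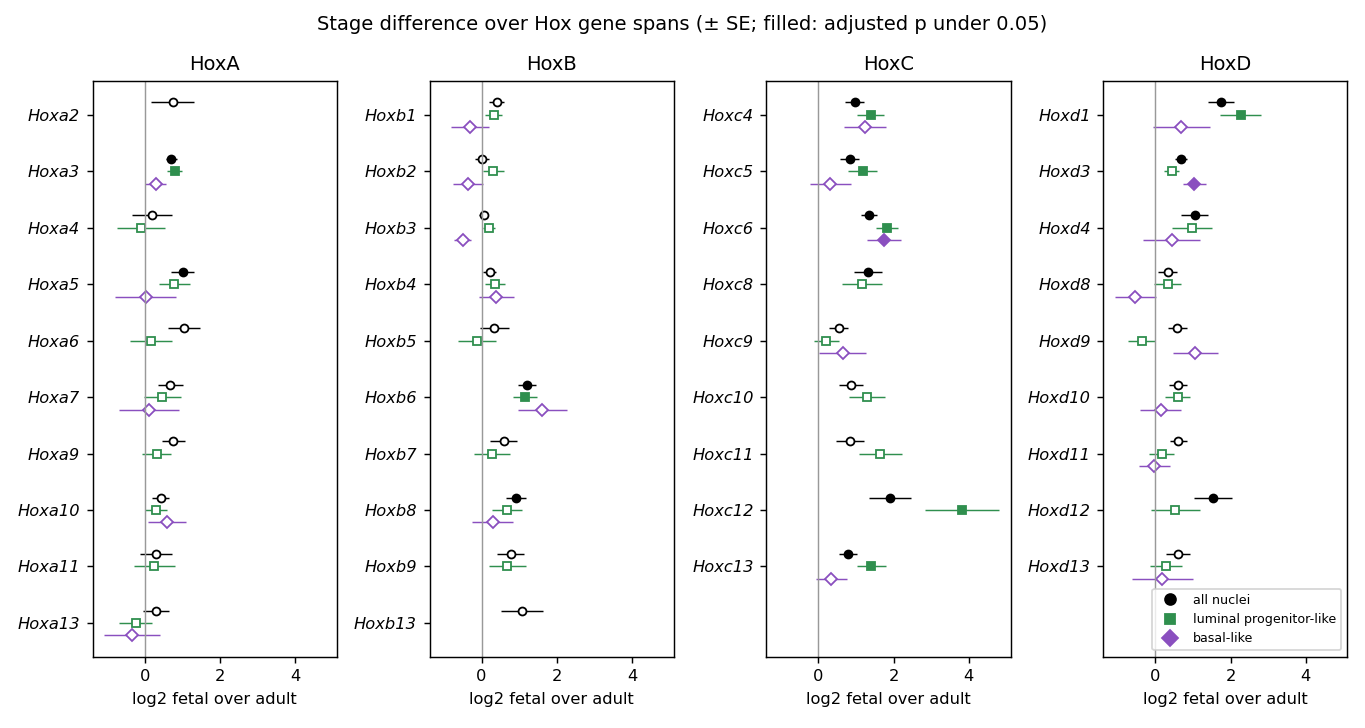
Log2 fold change of fetal over adult libraries with its SE for each listed Hox gene, in all nuclei (black circles), luminal progenitor-like nuclei (green squares) and basal-like nuclei (purple diamonds). Filled symbols passed an adjusted p of 0.05, a gene without a symbol was not tested in those nuclei, and Hoxc6 is filled in all 3.

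Across the 14 classes the median level of the 38 members was highest in class 6, at 1.98. It ran from 1.36 to 1.63 in the mainly fetal classes 4, 5, 9, 12 and 13, and from 0.731 to 1.30 in the mainly adult classes 1, 2, 3, 7, 8, 10, 11 and 14, of which class 3 was the highest. Over all 14 classes the share of reads in promoter regions, 24.2% in class 6 and 17.8% to 27.1% in all, did not follow this order. Among the mainly adult classes it was related to the level. Medians ran from 0.731 to 0.785 in classes 1, 2, 7 and 10, with shares of 23.4% to 27.1%. They ran from 0.801 to 1.30 in classes 3, 8, 11 and 14, with shares of 17.8% to 21.5%. The part of this share in the levels was not tested. The classes were made from these nuclei, so class differences are given as descriptions with no test. Class 6 held 23 and 33 fetal and 82 and 75 adult nuclei, had all 9 stromal markers raised, and its summed shared luminal markers were the lowest of the classes at 56.1 RPM, although the sort was for the epithelial surface protein EpCAM.

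The genes high in class 6 were mostly central and posterior genes of HoxA and HoxC. Of the 38 members, 11 had their highest level in class 6 (28.9%, beside 15.4% of all gene spans): Hoxa3, Hoxa7, Hoxa9, Hoxa10, Hoxc4, Hoxc6, Hoxc8, Hoxc9, Hoxc10, Hoxc11 and Hoxd8. Hoxc6 had 4.45 in class 6 and 0.765 as the median of the other 13 classes, from 8, 32, 28 and 23 reads in fetal replicates 1 and 2 and adult replicates 1 and 2. Hoxc9 had 4.96 in class 6 and 0.794 as the median of the other 13 classes, and Hoxa9 had 5.79 in class 6 and 0.978 as the median of the other 13 classes. Hoxa10, a gene of uterine patterning, had 4.50 in class 6 and 1.18 as the median of the other 13 classes. In 15 members class 6 lay above the other classes pooled in all 4 libraries, and in 4 it lay below in all 4, beside 9.47% and 24% of all gene spans tested. The median ratio of class 6 to the median of the other classes was 3.95 in HoxC, 1.74 in HoxA (2.66 over bases of no other gene), 1.36 in HoxD and 1.23 in HoxB, beside 0.983 over all gene spans tested.

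Hoxb1 ran the other way. Its level was 1.07 in class 6, the lowest of the 14, from 0 reads in 3 libraries and 4 in adult replicate 2. It was highest in classes 9, 5, 7, 10 and 1, at 7.99, 7.22, 6.58, 6.57 and 6.48, and low in classes 14, 12, 8, 11 and 13, at 1.87, 2.13, 2.17, 2.44 and 2.50. All 4 of the progenitor-like classes 3, 5, 7 and 9 were at 5.16 or more. The basal-like classes 4 and 8 were at 3.10 and 2.17 and class 1 was higher. The share of reads in promoter regions ran from 17.8% to 22.8% in the low classes 14, 12, 8, 11 and 13. It was higher in each of classes 9, 5, 7, 10 and 1. Among basal-like classes it was 25.6% in class 1 and 17.8% in class 8. Class 6 went the other way at 24.2%, as did class 3, with a lower share than classes 12, 13 and 14. The part of this share in the Hoxb1 levels was not tested. Hoxb2, the neighbour of Hoxb1, varied less, from 3.76 to 7.10, and Hoxb3 from 1.18 to 2.02. Hoxd13, used in digits and the genital tract, was the other member lowest in class 6, at 0.791 from 4 reads in all, and its highest level was 4.33 in class 13. Hoxd9, the highest of HoxD, ran from 0.960 in class 14 to 6.08 in class 3. The genes of these 2 paragraphs on single genes by class were chosen after their values were seen.

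**Figure D4:**
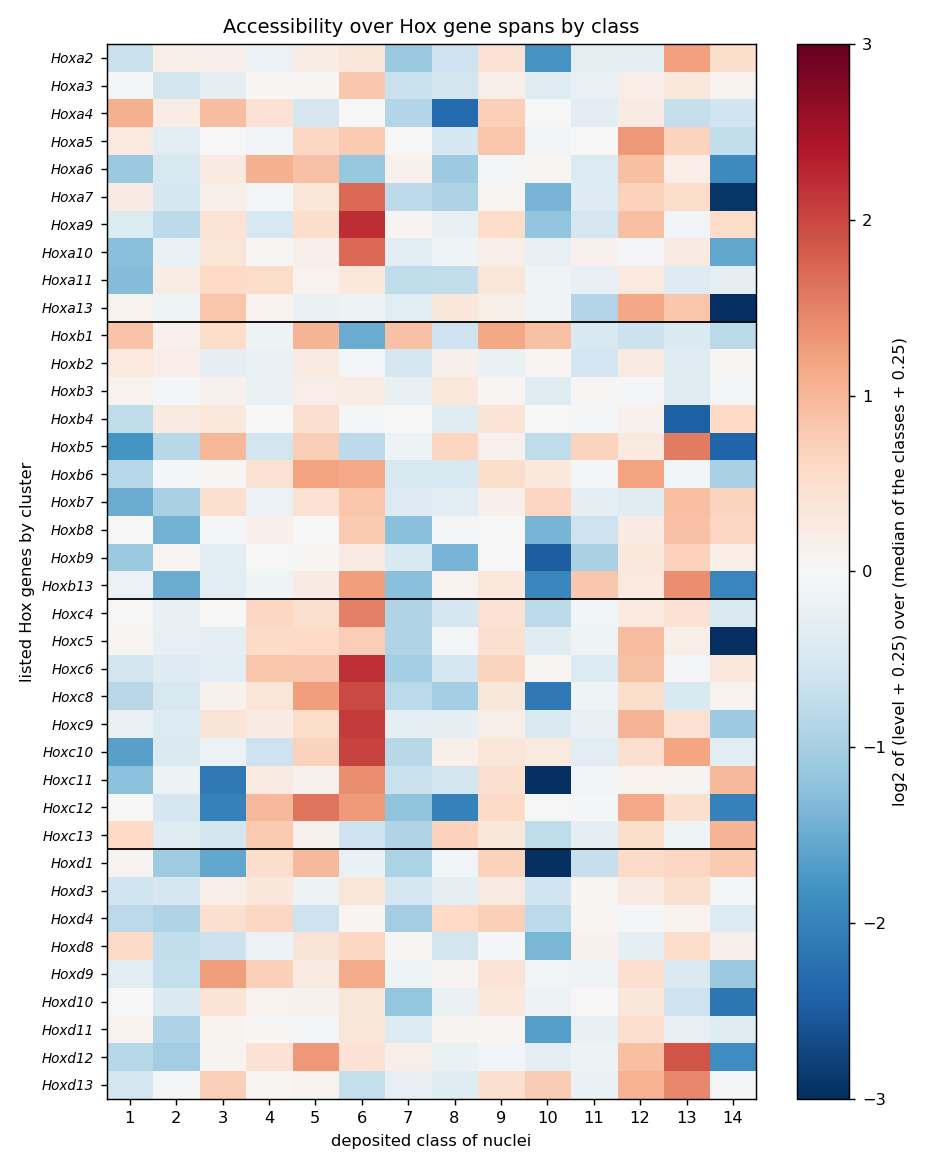
Level of each listed Hox gene in each deposited class relative to the gene's median over the 14 classes, as log2 with 0.25 added to both, red for above and blue for below. Values past the ends of the scale take the end colour; class 6 is deep red for Hoxa7, Hoxa9, Hoxa10 and Hoxc6 to Hoxc10 and blue for Hoxb1, and many of the darkest cells fall in classes 10 and 14, which have only 144 and 85 nuclei.

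The authors' co-accessibility scores, which give how far 2 regions open in the same nuclei, were low inside the Hox clusters. Of 2043 pairs with both regions in 1 cluster interval and at most 100000 bases apart, 1 had a score of at least 0.25, a share of 0.0489% beside 0.826% of the 1873898 such pairs of the whole series. That pair joined the Hoxc6 promoter region named above with the distal region next to it (chr15:103000001-103001000), also in Hoxc6, at a score of 0.317. The distal region itself had 3.82 and 2.40 RPM in fetal, 0.883 and 0.363 in adult libraries. It averaged under 10 adult reads and entered the test only through the fetal libraries. The values are given as a description for that reason. None of 4361 pairs that joined a cluster interval to its 250000-base flanks reached 0.25, and the highest was 0.158, at HoxC. No share over the whole series was made for pairs of this kind, so that count is a description only. The scores pool all nuclei of both stages and have no replicates.

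The deposited motif scores had columns for 10 of the 38 members. A score is the chromVAR deviation of a nucleus, a relative measure of reads in all regions that hold a motif, and related homeodomain factors share nearly the same motif. Hoxc8 and Hoxc9 were higher in fetal libraries, Hoxb2 and Hoxb3 were lower, and 6 were not called, where 32.3% of the 427 motifs were called higher and 35.6% lower. With 10 columns of related motifs, 2 calls in each direction cannot be told apart from those shares. Hoxc9 scored 0.0934 and 0.166 in fetal, -0.125 and -0.0468 in adult libraries, a difference of 0.22 ± 0.05 (SE), limma adjusted p = 0.0161. Hoxc8 scored 0.118 and 0.138 in fetal, -0.107 and -0.0400 in adult libraries, a difference of 0.20 ± 0.05 (SE), limma adjusted p = 0.0133. Hoxb3 scored -0.217 and -0.234 in fetal, 0.0584 and 0.154 in adult libraries, a difference of -0.33 ± 0.05 (SE), limma adjusted p = 0.00259. Hoxb2 scored -0.156 and -0.156 in fetal, 0.0422 and 0.0653 in adult libraries, a difference of -0.21 ± 0.04 (SE), limma adjusted p = 0.00769. The stages did not overlap for these 4, and the calls of Hoxc8 and Hoxc9 were lost without adult replicate 1, that of Hoxc9 also without fetal replicate 2 and that of Hoxb2 without adult replicate 2. The differences were small: the median absolute difference was 0.150 for the Hox columns and 0.256 for all motifs.

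**Figure D5:**
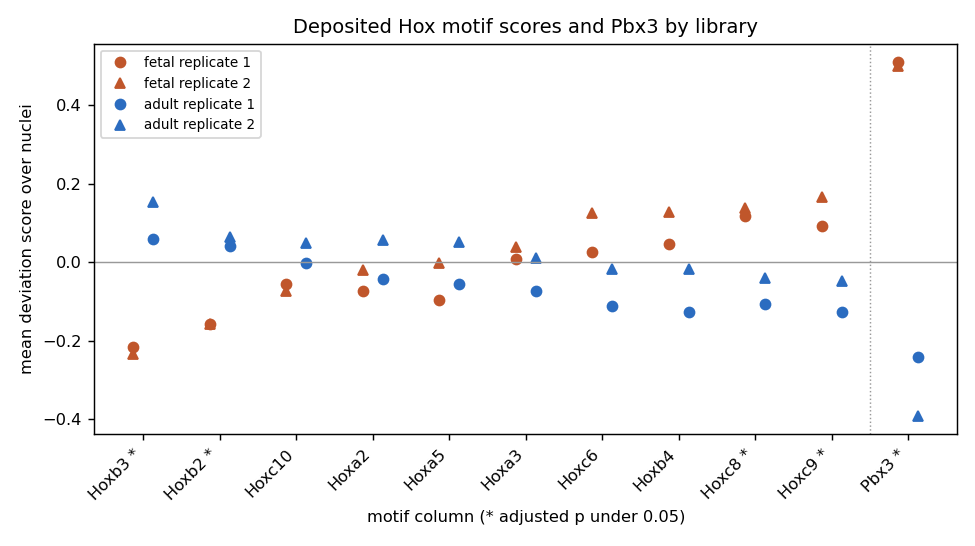
Mean chromVAR deviation score over the nuclei of each library for the 10 Hox motif columns, ordered by the difference between stages, and for Pbx3 at the right. Circles are replicate 1 and triangles replicate 2, an asterisk marks an adjusted p under 0.05 in limma, and Pbx3 separates the stages by more than any Hox column.

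Over the classes the Hox motif scores had narrower ranges than the median motif. The range of class means had a median of 0.587 over the 10 columns, beside 1.02 over all 427. Class 8 was the highest for 5 of the 10 (Hoxa2, Hoxa3, Hoxb4, Hoxc6 and Hoxc8), and the lowest was class 3 for 5, class 10 for 3 and class 5 for 2 (Hoxb2 and Hoxb3). Hoxc6 scored highest in classes 8 and 1, at 0.416 and 0.410, and lowest in classes 10, 7 and 3, at -0.412, -0.341 and -0.304. Class 6, where the Hoxc6 span was most open, scored 0.00553. Of 9 TALE columns, Pbx3, Pbx2 and Pbx4 were called higher and Pknox1 lower, beside 32.3% and 35.6% of all 427 motifs. With so few columns, these counts cannot be told apart from those shares. Pbx2 and Pbx4 hold identical values. Pbx3 scored 0.511 and 0.499 in fetal, -0.240 and -0.391 in adult libraries, a difference of 0.82 ± 0.06 (SE), limma adjusted p = 1.8e-04, and its highest class was class 6 at 1.47.

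Counts of genes that work with or stand beside the clusters are to be read against the shares of all gene spans, 10.3% called higher and 10.1% lower over all nuclei, and these lists are short. Over all nuclei 2 of the 8 cofactor genes reported rose over their spans and none fell: Meis2 (log2 fold change 1.07 ± 0.11, SE) and Pbx3 (1.03 ± 0.14). Within luminal progenitor-like nuclei, where 8.19% of gene spans were called higher and 8.5% lower, 4 of the 8 rose, Meis1 (1.10 ± 0.14), Meis2 (0.81 ± 0.12), Pbx3 (0.73 ± 0.17) and Pknox2 (0.49 ± 0.13). Within basal-like nuclei, where the shares were 2.45% and 2.7%, Meis2 (1.74 ± 0.23) and Meis1 (0.87 ± 0.19) rose and Pknox2 (-0.63 ± 0.18) fell. Meis1 thus rose in both groups of classes, while its value over all nuclei was 0.03 ± 0.12 and was not called. Pbx3 thus rose in both span and motif score. None of 18 Polycomb and trithorax genes was called in edgeR over all nuclei or within luminal progenitor-like nuclei, and 1 was called higher within basal-like nuclei, the histone methyltransferase gene Kmt2a (0.91 ± 0.26). Over all nuclei their values ran from -0.31 to 0.49. Of 13 flanking genes tested over all nuclei, 4 rose: Calcoco2 (1.36 ± 0.27), Evx2 (0.92 ± 0.20), a homeobox gene at the posterior end of HoxD, Ttll6 (0.75 ± 0.18) and Cbx5 (0.60 ± 0.14), which encodes a heterochromatin protein. Mtx2 (-0.87 ± 0.18), at the anterior side of HoxD, and Snx10 (-0.43 ± 0.13) fell. Of 8 noncoding RNA genes in the clusters 3 had enough reads, and Hotairm1 (0.70 ± 0.22) was called, while Hotair (1.67 ± 0.60, edgeR adjusted p = 0.0606) and Hottip (1.04 ± 0.37, edgeR adjusted p = 0.0586) were not. Reads carry no strand, so these antisense RNA genes cannot be told apart from Hox genes on the other strand.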

How the data were processed

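Reads of single-nucleus ATAC-seq were aligned and handled with Bowtie2, MACS2 and bedtools on mm10, per the submitters' processing notes, which give no order or settings. The deposited read lists hold 1 line per read with its position and barcode; the count of reads over features was made here from them, as positioned in the files (no shift added; whether the authors shifted reads is not given in the sources used here) and without strand, and a read counted for each feature that it overlapped by at least 1 base. A line covered 163 to 200 bases in every library (median 195), so a read counted over a short window can lie mostly outside it. The authors' deposited table gives a chromVAR deviation score per nucleus and motif, its class and its read count, and their Cicero table a co-accessibility score per pair of regions. Only the kept nuclei were used, no barcode was shared between libraries, and no doublet caller was run; a barcode pair can hold more than 1 nucleus. Both ends of a fragment are separate reads, so reads are not independent molecules.

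Counts were summed per library, and features averaging 10 or more reads a library were tested with edgeR 4.0.16 (quasi-likelihood, TMM, 2-sided, Benjamini-Hochberg over all features, threshold 0.05) in R 4.3.3; motif means were tested with limma 3.58.1. The SE is the size of the log2 fold change divided by the square root of the F statistic. Fits were tested on simulated data. Gene spans and promoter sequences came from RefSeq (GRCm38.p6, the assembly of mm10). An exact permutation of 2 against 2 libraries cannot go below p = 0.333, so none was used. Alternatives were DESeq2 1.42.0, other scaling, filters, counting windows, class choices, a replicate block and leaving out each library.

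The members and lists were chosen with earlier results of these data known. Named in full are the 6 largest rises among members called in the span or promoter test without overlap (no member fell), the highest member of each cluster, the called region with the largest rise in each cluster at 50 or more reads on average over the libraries, and the called Hox motifs. The deposited Cicero gene score table was not used, and 1 cofactor is not reported here.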

Additional observations from a re-analysis of the deposited data

Results flagged for a closer look

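Of 41 cofactor, chromatin, flanking and noncoding genes tested beside the Hox clusters, 3 had a log2 stage change (fetal over adult) that differed between basal-like and luminal progenitor-like nuclei by the test of the difference itself, where 4.93% of all gene spans did. That count is near the background, as is the 0 of 34 Hox genes. Meis2, a TALE cofactor, had a difference of 0.87 (edgeR adjusted p = 0.00908), with 1.74 in basal-like and 0.81 in luminal progenitor-like nuclei. Pknox2, of the same family, had a difference of -1.14 (edgeR adjusted p = 1.2e-05), with -0.63 in basal-like and 0.49 in luminal progenitor-like nuclei. Kmt2a, a histone methyltransferase that maintains Hox expression, had a difference of 0.97 (edgeR adjusted p = 0.0330), with 0.91 in basal-like and -0.12 in luminal progenitor-like nuclei. Class and stage largely coincide in these nuclei, and the part of that in the differences was not tested.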

How the results depend on the processing

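Of the values of single genes, regions and motifs recomputed under the alternatives, 309 kept their direction and side of the threshold, 77 kept their direction and lost the call, and 2 reversed. The reversals were over the window at the gene start: Hoxd3 in all nuclei at -0.64 and Hoxa3 in luminal progenitor-like nuclei at -0.24. The number of members called over gene spans was 14, 8 with DESeq2, 2 of 20 over the start window, and 7 to 11 with 1 library left out. For promoter regions it was 9, 4 of 11 with a mean of at least 50 reads, and 4 to 7 with 1 library left out; for distal regions it was 13, 3 with DESeq2, 3 of 9 with at least 50 reads, and 3 to 12. In basal-like nuclei it was 2, 0 with DESeq2, 1 with its size factors, with no filter, with at least 50 reads or with 1 fetal and 2 adult classes, 0 of 2 over the start window, and 0 to 1 with 1 library left out. In luminal progenitor-like nuclei it was 8, 4 with DESeq2 or at least 50 reads, 2 over the start window, and 2 to 9. The class by stage difference gave 0 calls, and 0 to 1 with 1 library left out. Hox motif calls numbered 4, and 2 to 4. The class 6 ratio of HoxA went from 1.74 to 2.66 over bases of no other gene. Causes were not tested, apart from the fewer features tested where a filter or window leaves them. Calls over all features moved with the setting too. With DESeq2, calls higher in fetal went from 3056 to 2068 of 29736 gene spans and from 1954 to 1329 of 18570 promoter regions. Those of 122865 distal regions went from 20351 to 10847. Within basal-like nuclei they went from 544 to 150 of 22186 gene spans, and within luminal progenitor-like nuclei from 2124 to 1037 of 25935. A changed count is thus not particular to the Hox members.

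Replicate numbers are shared between the stages, but nothing says that they pair libraries. Same-numbered libraries deviated together at r = 0.263 over gene spans, 0.0709 over promoter regions, 0.0586 over distal regions and 0.449 over motifs. With a replicate block the numbers called were 19 gene spans, 7 promoter regions, 9 distal regions, 2 members in basal-like and 10 in luminal progenitor-like nuclei, and 6 Hox motifs. Over all features, calls higher in fetal went from 3056 to 4670 of 29736 gene spans and from 1954 to 2076 of 18570 promoter regions. Those of 122865 distal regions went from 20351 to 18973. They went from 544 to 903 of 22186 gene spans in basal-like and from 2124 to 2754 of 25935 in luminal progenitor-like nuclei. Motif calls in either direction went from 290 to 313 of 427. Depth limits the short genes most: a member's count in 1 library ran from 10 to 1255 reads.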
